A study of Mus musculus with 2 samples.

Results

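The RNA levels of 8 mouse genes were described: the 6 conventional actins Acta1, Actc1, Acta2, Actg2, Actb and Actg1, and the cofilins Cfl1 and Cfl2. They were chosen by gene symbol, through the transcript names in one of the deposited tables, and are 8 of the 55536 GENCODE M21 genes in the gene tables. Total RNA came from a calf muscle, the gastrocnemius, of male B6CASTF1/J hybrid mice aged 10 days. The labels define 1 group of 2 biological replicates, each made from 300 ng of RNA with ERCC spike-in RNAs added, and give the animals different numbers but the same donor code. No second condition, treatment or mutation is labelled, so the data describe levels and the spread between 2 libraries, which may be partly technical. With 2 values the smallest two-sided p of an exact sign-flip test is 0.5, so no gene was tested.

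Actin monomers polymerise into filaments that carry contraction in muscle and give shape and movement to every cell. Alpha-actins build the thin filaments of sarcomeres, 1 alpha and 1 gamma isoform serve smooth muscle, and the beta and gamma cytoplasmic isoforms form the cytoskeleton of most cells. Cofilins bind ageing filaments, sever them and speed the return of monomers. Cfl2 is the muscle cofilin and Cfl1 the cofilin of most other cells.

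The genes were quantified in 2 ways. The first tables, a gene table with its matching transcript table, summed to 38160786 expected counts for replicate 2 and 38874862 for replicate 1, and the second table, a separate transcript table summed here per gene, to 36335649 estimated counts for replicate 2 and 37386161 for replicate 1. Levels are TPM, the relative abundance scaled by transcript length and library size, so that genes can be compared. They come from the first tables unless stated, and a value with ± is a mean with its SD over n = 2 libraries. For a gene whose effective length is 1000 bases, the level that a count of 3 would give at this depth is 0.0924 TPM in replicate 2 against 0.0925 TPM in replicate 1. The 6 skeletal muscle fibre markers summed to 60555 TPM in replicate 2 against 61096 TPM in replicate 1, with all 6 above 1 TPM, which fits the labelled tissue. In whole tissue, a lower level can mean fewer cells of a type or less RNA per cell, and these cannot be told apart.

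The isoforms differ mainly by scattered bases, and the first 60 coding bases of the leading transcript of each gene, from GENCODE M21, show where the subtypes part. Capitals mark bases that differ from Acta1 in the aligned coding sequences, and for Cfl1 those that differ from Cfl2. Gaps of the alignment are not drawn.
Acta1: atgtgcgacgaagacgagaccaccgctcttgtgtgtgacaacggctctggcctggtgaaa
Actc1: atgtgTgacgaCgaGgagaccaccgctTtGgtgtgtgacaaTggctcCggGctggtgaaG
Acta2: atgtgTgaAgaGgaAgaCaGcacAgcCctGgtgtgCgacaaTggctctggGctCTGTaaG
Actg2: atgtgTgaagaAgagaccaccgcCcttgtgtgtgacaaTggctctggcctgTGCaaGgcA
Actb: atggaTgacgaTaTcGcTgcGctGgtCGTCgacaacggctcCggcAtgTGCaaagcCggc
Actg1: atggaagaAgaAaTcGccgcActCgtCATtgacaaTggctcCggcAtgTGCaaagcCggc
Cfl2: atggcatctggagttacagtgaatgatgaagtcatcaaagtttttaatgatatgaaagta
Cfl1: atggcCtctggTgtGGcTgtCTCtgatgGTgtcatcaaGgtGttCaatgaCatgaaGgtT

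Actc1 and Actg2 differed from Acta1 at 9 of these 60 bases each, Acta2 and Actb at 17 each, and Actg1 at 16. Over the whole coding sequence the cytoplasmic pair Actb and Actg1 was the most alike of the 15 actin pairs, with 88.7% identical bases. Acta1 and Actc1 followed with 86.2%, and the lowest value, 81.9%, was that of Actg1 with Actc1 and with Acta2. Cfl2 and Cfl1 were 71.9% identical over 501 aligned bases, the coding length of Cfl2. The coding sequence of the leading Cfl1 transcript has 684 bases, and those without a partner in the alignment are not counted. These identities bear on how far reads can be assigned to 1 gene.

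Windows of exact sequence in the leading transcripts show how much is shared. No 100-base window of any of the 8 genes occurred in another of the 8. At 31 bases, 7.20% of the windows of Actb and 5.98% of those of Actg1 occurred in another of the 8, 4.03% of those of Acta1, and none of the windows of either cofilin occurred in the other. At 100 bases, sharing with the rest of the annotation was concentrated in Actg1, of whose windows 51.1% recurred in another gene. Of its windows centred in its coding sequence, 83.9% did so. The share was 1.10% for Actb, 0.858% for Cfl1 and none for the other 5. At 31 bases it was 57.1% for Actg1, 35.1% for Actb, 28.5% for Cfl1 and at most 4.45% for the other 5. All 6 genes that share 100-base windows with Actg1 are processed pseudogenes. Together they held 843 expected counts in replicate 2 against 704 in replicate 1, which equals 7.17% of the counts given to Actg1 in replicate 2 and 6.57% in replicate 1. Most were on Gm8399, with 731 counts in replicate 2 and 639 in replicate 1, and Actg-ps1, the pseudogene named after Actg1, held 58.8 in replicate 2 and 37.4 in replicate 1. The 20 shared 100-base windows of Actb lie in the protein-coding Lrrc58 and the pseudogene Gm15725. These held counts equal to 18.0% of those given to Actb in replicate 2 and 18.8% in replicate 1, most of them on Lrrc58. Reads could be split between Actg1 and its pseudogene copies, so the level of Actg1 is uncertain. Its counts were 11743 in the first tables and 11745 in the second in replicate 2, and 10719 and 10751 in replicate 1. Those of Gm8399 were 731 and 387 in replicate 2, and 639 and 348 in replicate 1.

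**Figure D1:**
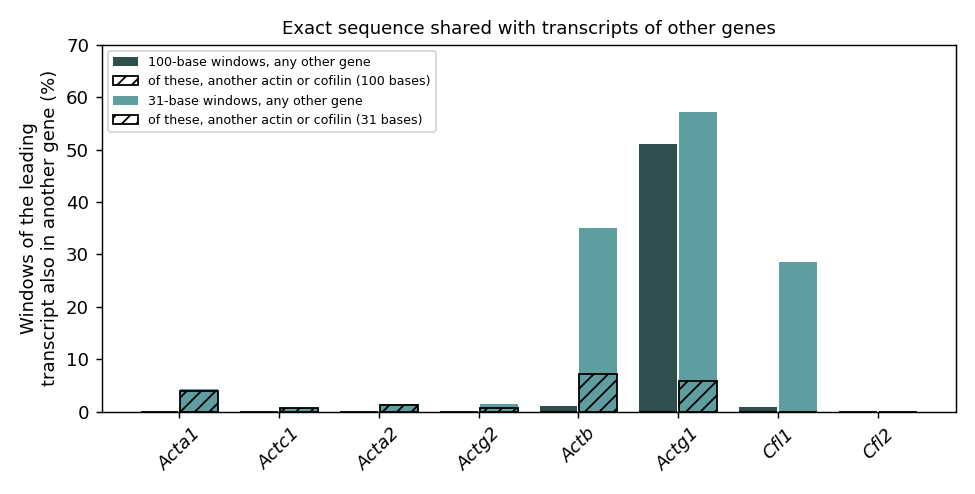
Percent of exact 100-base (dark bars) and 31-base (light bars) windows of each leading transcript that also occur in a transcript of another gene, with the share found in another actin or cofilin hatched. Actg1 stands at 51.1% for 100-base windows, and no window of that length is shared among the 8 genes.

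Acta1, the skeletal alpha-actin of the thin filament (ENSMUSG00000031972.5, mm10 chr8:123891769-123894751, minus strand), had 24109 TPM in replicate 2 against 22684 TPM in replicate 1, ranking 1 of 22028 protein-coding genes by mean. It held 1049372 expected counts in replicate 2 against 985324 in replicate 1, which is 2.75% of the library in replicate 2 and 2.53% in replicate 1. Acta1 was slightly higher in replicate 2, and the next gene in level, the fast myosin light chain Mylpf, was below it in both libraries with 21789 TPM in replicate 2 against 21774 TPM in replicate 1. Gm20388, annotated on the opposite strand over all 2983 bases of Acta1, held 44.0 counts in replicate 2 and 154 in replicate 1. The use of strand in counting is not stated in the labels or files, so reads of this antisense gene and of Acta1 may not be separable. Snx32, opposite Cfl1, held 80.0 counts in replicate 2 and 120 in replicate 1, and the genes opposite Actc1 and Cfl2 held no more than 5.23 counts in either library.

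Actc1, the cardiac alpha-actin that is also made in developing skeletal muscle (ENSMUSG00000068614.7, chr2:114047282-114053548, minus strand), had 2094 TPM in replicate 2 against 2091 TPM in replicate 1. In TPM the libraries were nearly equal for it, with a coefficient of variation of 0.125%, the lowest of the 8. In the scaled counts compared below, Actc1 had a log2 ratio of 0.07 and Cfl2 the smallest, 0.00. Acta1 exceeded Actc1 11.5-fold in replicate 2 and 10.9-fold in replicate 1, and Actc1 in turn exceeded Actb 3.22-fold in replicate 2 and 3.39-fold in replicate 1. Its neighbours in level were the fast myosin Myh1, at 2170 ± 295 TPM, and the fibroblast collagen Col1a1, at 2060 ± 138 TPM. Markers of heart muscle stood far lower: the 7 cardiac markers summed to 81.6 TPM in replicate 2 against 70.1 TPM in replicate 1, with the atrial genes Nppa and Myl7 listed at 0 in both. Only Myh6, Tnnt2 and Myl4 passed 1 TPM in both libraries, with 49.5, 18.5 and 12.9 TPM in replicate 2 and 38.5, 17.5 and 13.0 TPM in replicate 1.

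The sarcomeric pair together made up 95.9% of the summed TPM of the 6 actins in replicate 2 and 96.0% in replicate 1, and the 6 actins made up 2.73% of all TPM in replicate 2 and 2.58% in replicate 1. The share of Acta1 alone was 88.0 ± 0.217%, and that of Actc1 7.88 ± 0.310%. Between the libraries the share of Actc1 differed more than the share of all sarcomeric actin, 7.66% in replicate 2 and 8.10% in replicate 1.

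Acta2, the alpha-actin of vascular smooth muscle and myofibroblasts (ENSMUSG00000035783.9, chr19:34241090-34255590, minus strand), had 275 TPM in replicate 2 against 227 TPM in replicate 1. Actg2, the gamma-actin of visceral smooth muscle (ENSMUSG00000059430.14, chr6:83512905-83536265, minus strand), had 2.95 TPM in replicate 2 against 1.55 TPM in replicate 1, from 115 counts in replicate 2 and 61 in replicate 1. Both were higher in replicate 2. Acta2 exceeded Actg2 93.2-fold in replicate 2 and 147-fold in replicate 1, and the pair supplied 1.02% of actin TPM in replicate 2 and 0.887% in replicate 1. Acta2 stood 233rd among protein-coding genes, beside the histone gene H3f3a at 251 ± 10.7 TPM and Drap1 at 249 ± 14.5 TPM, while Actg2 ranked 9879. Of the 4 visceral smooth muscle markers, Hhip was at 0.930 TPM in both libraries and Pcp4 at 0.0600 TPM in replicate 2 against 0.120 TPM in replicate 1, whereas Des and Smtn, also genes of striated muscle, had 698 and 64.7 TPM in replicate 2 and 631 and 77.5 TPM in replicate 1.

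Actb, the beta cytoplasmic actin (ENSMUSG00000029580.14, chr5:142903115-142906754, minus strand), had 651 TPM in replicate 2 against 618 TPM in replicate 1. Actg1, the gamma cytoplasmic actin (ENSMUSG00000062825.15, chr11:120345690-120348542, minus strand), had 201 TPM in replicate 2 against 187 TPM in replicate 1. Both were somewhat higher in replicate 2 in these first tables. There the ratio of Actb to Actg1 was close in the libraries, 3.23 in replicate 2 and 3.31 in replicate 1. Together they held 3.12% of actin TPM in both libraries (3.12 ± 0.000972%). In the second table Actb was lower in replicate 2, with 1099 TPM against 1160 TPM in replicate 1. Its ratio to Actg1 there was 3.30 in replicate 2 and 3.76 in replicate 1. The pair held 2.41% of actin TPM in replicate 2 of that table and 2.58% in replicate 1. Actb stood 64th among protein-coding genes, between the ribosomal protein gene Rps14 at 636 ± 11.6 TPM and Pde4dip, which codes for myomegalin, at 627 ± 30.6 TPM. Actg1 stood 300th, between Cst3 at 195 ± 9.83 TPM and Fitm1 at 194 ± 5.47 TPM. Actb-ps1, the pseudogene named after Actb, held 1.5 counts in replicate 2 and 0.5 in replicate 1.

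Cfl2 (ENSMUSG00000062929.8, chr12:54858809-54862877, minus strand) had 342 TPM in replicate 2 against 367 TPM in replicate 1. Cfl1 (ENSMUSG00000056201.8, chr19:5490455-5495201, plus strand) had 137 TPM in replicate 2 against 130 TPM in replicate 1. The pair moved in opposite directions in TPM: Cfl2 was lower and Cfl1 higher in replicate 2. Cfl2 therefore took 71.5% of cofilin TPM in replicate 2 and 73.9% in replicate 1, or 72.7 ± 1.70%, and exceeded Cfl1 2.51-fold in replicate 2 and 2.83-fold in replicate 1. Over protein-coding transcripts alone, a setting chosen after seeing the data, Cfl2 took 36.4% in replicate 2 and 38.2% in replicate 1, so that it lay below Cfl1. All cofilin transcripts together had 479 TPM in replicate 2 against 497 TPM in replicate 1, which is 1.75% of the summed TPM of the 6 actins in replicate 2 and 1.92% in replicate 1. Cfl2 lay beside the ribosomal protein genes Rpl9 (358 ± 18.0 TPM) and Rpl18 (355 ± 6.98 TPM), and Cfl1 beside Myl6 and Hnrnpa2b1 (133 ± 4.79 and 133 ± 9.91 TPM).

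In order of level the genes ran Acta1, Actc1, Actb, Cfl2, Acta2, Actg1, Cfl1 and Actg2. This order of all transcripts summed was the same in both libraries and in both sets of tables, whereas over protein-coding transcripts alone Cfl2 came below Cfl1. In the first tables the closest neighbours were Acta2 over Actg1, Cfl2 over Acta2 and Actg1 over Cfl1, at 1.37-fold, 1.25-fold and 1.47-fold in replicate 2 and 1.22-fold, 1.61-fold and 1.44-fold in replicate 1. On the log2 scale these gaps were 0.37 ± 0.12, 0.50 ± 0.26 and 0.54 ± 0.02, each larger than its SD. The other 4 neighbouring steps there were larger, the smallest of them being Actb over Cfl2 at 0.84 ± 0.12. In the second table Actb over Cfl2 was the closest, at 0.42 ± 0.02.

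**Figure D2:**
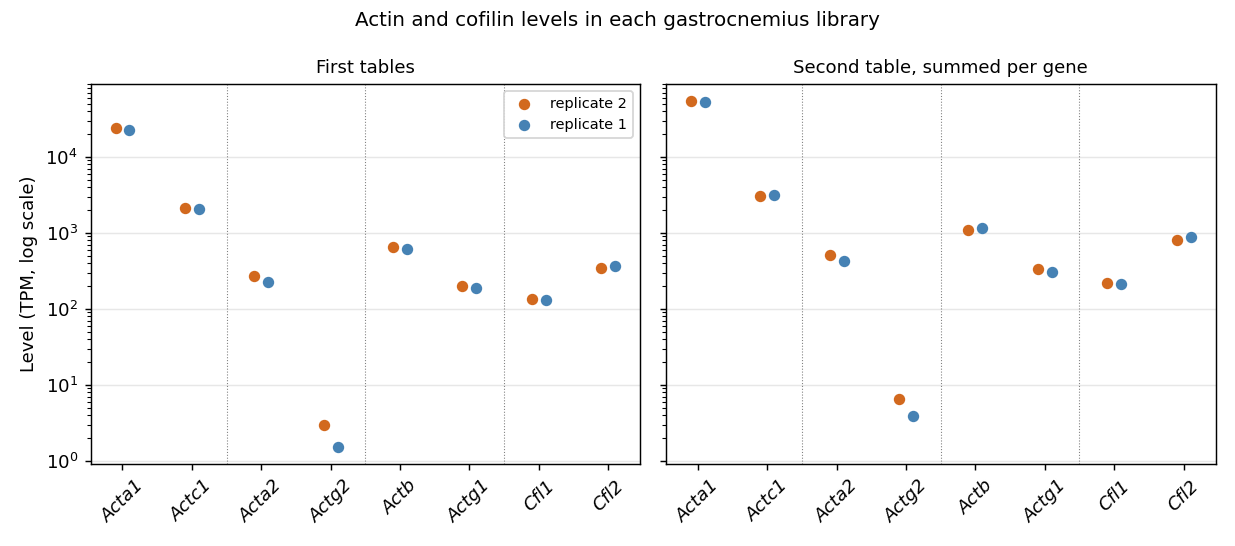
TPM of each gene (vertical axis, log scale) in the first tables (left panel) and the second table (right panel), with 1 point per library, replicate 2 in orange and replicate 1 in blue. Dotted lines separate sarcomeric, smooth muscle and cytoplasmic actins and cofilins. The order from Acta1 (24109 TPM in replicate 2 of the first tables) down to Actg2 (2.95 TPM) is shared by both panels and both libraries.

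The libraries were then compared gene by gene as log2 ratios of replicate 2 over replicate 1, scaled with edgeR's TMM. They are ratios of counts and can differ from ratios of TPM, since TMM and TPM scale the libraries differently. They can also differ where the effective length differs between libraries. A threshold of 0.25, or 1.19-fold, was passed by 2 of the 8 genes, Acta2 and Actg2, both higher in replicate 2. The background was 16.6% of the 10967 protein-coding genes whose mean count reached 100, of which 9.47% were higher and 7.13% lower, and 2 of 8 stands little apart from it. Actg2, with a mean count of 88, lies outside that background set. The ratio of Acta2 was 0.36 with a 95% counting interval of 0.32 to 0.39, and that of Actg2 was 0.98 with an interval of 0.52 to 1.46. Such intervals cover counting error only, not the variation between mice. The ratios of the other 6 ran from 0.00 for Cfl2 to 0.20 for Actg1, with 0.16 for Acta1, 0.07 for Actc1, 0.14 for Actb and 0.09 for Cfl1, beside a median of 0.02 over the background genes. In the second table Acta2 had 0.39 and Actg2 0.99.

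Markers of vessel walls were read beside Acta2 and Actg2. All 10 smooth muscle and mural cell markers were above 1 TPM in both libraries. All 10 ratios were above 0, beside 55.9% of the background genes, and 6 were past 0.25, beside 9.47%, while 4 lay within it. Their median was 0.27, beside 0.02. Their summed level was 354 TPM in replicate 2 against 308 TPM in replicate 1. Contractile markers had the larger values: Tagln, an actin-binding protein of smooth muscle, had 34.0 TPM in replicate 2 against 22.8 TPM in replicate 1 (log2 ratio 0.59), Myh11, the smooth muscle myosin, 11.2 TPM in replicate 2 against 8.64 in replicate 1 (0.44), and Cnn1, calponin, 3.12 TPM in replicate 2 against 2.33 in replicate 1 (0.64). The pericyte genes Rgs5 and Pdgfrb had smaller ratios of 0.13 and 0.04. Myl9 and Synpo2, with Rgs5 the highest of the list in level, had 0.30 and 0.28. Lmod1 lay at the threshold with 0.25 and an interval of -0.09 to 0.60. Synpo2 alone held 77.4 TPM in replicate 2 and 66.2 TPM in replicate 1 of the summed level of the 10. How much of its RNA came from muscle fibres rather than vessel walls was not tested. All 5 endothelial markers had ratios above 0, with 2 past 0.25 and 3 within it, read against the same 55.9% and 9.47%, and a summed level of 157 TPM in replicate 2 against 145 TPM in replicate 1. The 6 fibroblast markers went the other way, with 0 of 6 ratios above 0, none past 0.25, and 3435 TPM in replicate 2 against 3745 TPM in replicate 1. The part of vessel wall content in the ratios of Acta2 and Actg2 was not tested.

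**Figure D3:**
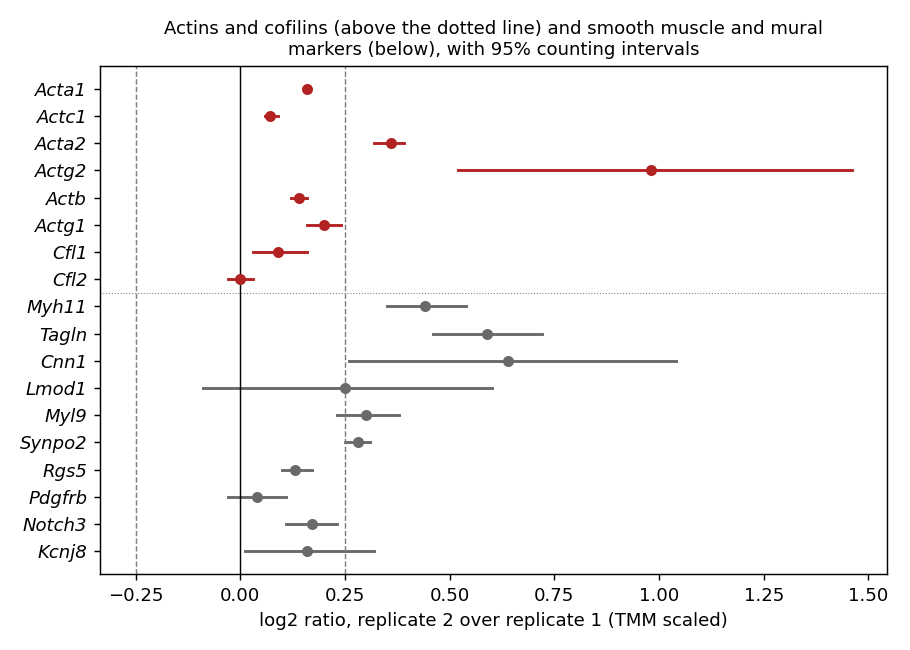
Log2 ratio of replicate 2 over replicate 1 with 95% counting intervals (horizontal axis) for the actins and cofilins, red, and for 10 smooth muscle and mural markers, grey, with dashed lines at 0.25 either way. Acta2 and Actg2 lie past 0.25 at 0.36 and 0.98, and the markers range from 0.04 for Pdgfrb to 0.64 for Cnn1.

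The transcripts behind each gene were given differently by the first tables and the second table. Acta1-201, the full transcript of 7 exons and 1446 bases, took 99.2% of Acta1 in the first tables against 55.5% in the second in replicate 2, and 99.1% against 54.6% in replicate 1. The rest was Acta1-202, a protein-coding transcript of 616 bases with 526 bases inside the exons of Acta1-201. Acta1-202 took 0.770% in the first tables against 44.5% in the second in replicate 2, and 0.920% against 45.4% in replicate 1. Its counts were 3107 in the first tables against 168156 in the second in replicate 2, and 3483 against 165908 in replicate 1. Its effective length in replicate 2, the length over which reads are spread, was 517 bases in the first tables and 264 bases in the second, and that of Acta1-201 was 1347 bases in the first tables and 1092 bases in the second. Across tables the summed level of Acta1 was 24109 TPM in the first and 54351 TPM in the second in replicate 2, and 22684 TPM in the first and 51870 TPM in the second in replicate 1. The part of the shorter transcript and of the effective length in that difference was not tested.

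Actb-201 led Actb, with 80.0% in the first tables against 61.6% in the second in replicate 2, and 80.7% against 56.6% in replicate 1. Actb-206, annotated as a processed transcript without a coding sequence, took 15.4% in the first tables against 4.63% in the second in replicate 2, and 16.5% against 5.38% in replicate 1. The protein-coding Actb-208 took 2.41% in the first tables against 33.2% in the second in replicate 2, and 0.990% against 22.9% in replicate 1. Actb-202 was estimated at 1.20% in the first tables against 0% in the second in replicate 2, and 0.430% against 13.9% in replicate 1. The second table thus gave more to these 2 shorter coding transcripts of Actb in sum, and divided it between them differently in the 2 libraries.

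Actg1-202 held 94.3% of Actg1 in the first tables against 68.8% in the second in replicate 2, and 84.4% against 67.3% in replicate 1. In the first tables Actg1-204, whose bases all lie inside the exons of Actg1-202, took 0% in replicate 2 and 8.67% in replicate 1. Actg1-205 took 0.190% in the first tables against 22.3% in the second in replicate 2, and 0.370% against 22.0% in replicate 1. Actc1-202 took 0.0300% of Actc1 in both libraries of the first tables, and 0.0373% in replicate 2 and 0.0384% in replicate 1 of the second, the rest being Actc1-201. Acta2-201 took 66.7% in the first tables against 51.6% in the second in replicate 2, and 65.8% against 51.3% in replicate 1, the rest being Acta2-202. For Actg2, with few counts, the split among Actg2-201, Actg2-202 and Actg2-205 changed with library and table. Actg2-201 took 41.9% in the first tables against 65.5% in the second in replicate 2, and 61.5% against 36.5% in replicate 1.

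Cfl2 had the largest share without coding annotation of the 8 genes. Cfl2-201, with 2940 bases the only one of its transcripts classed as protein-coding, took 22.8% in replicate 2 and 21.7% in replicate 1 of Cfl2 in the first tables. The processed transcript Cfl2-203 took 59.3% in replicate 2 and 59.4% in replicate 1, and Cfl2-204, of the same class, 13.8% in replicate 2 and 13.9% in replicate 1. All 1128 bases of Cfl2-203 lie inside the exons of Cfl2-201, and it has no exon base of its own. Cfl2-201 carries a 3′ untranslated part of 2308 bases, 78.5% of its length. In replicate 2 of the second table Cfl2-201 took 11.7%, Cfl2-203 33.6%, Cfl2-204 27.0%, Cfl2-202 15.5% and the intron-retaining Cfl2-205 12.2%. In replicate 1 of that table the same transcripts took 11.4%, 34.6%, 26.8%, 16.9% and 10.3%. Cfl1 was nearly all protein-coding in the first tables, with 99.6% in replicate 2 and 99.7% in replicate 1. Cfl1-201, Cfl1-204 and Cfl1-202 took 54.5%, 39.2% and 5.92% in replicate 2 and 58.4%, 34.0% and 7.24% in replicate 1. In the second table, the share of Cfl2 in cofilin TPM over protein-coding transcripts alone was 30.4% in replicate 2 and 32.2% in replicate 1. Of the expected counts of Cfl2, which are not divided by length, 48.3% lay on Cfl2-201 in replicate 2 and 47.0% in replicate 1.

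**Figure D4:**
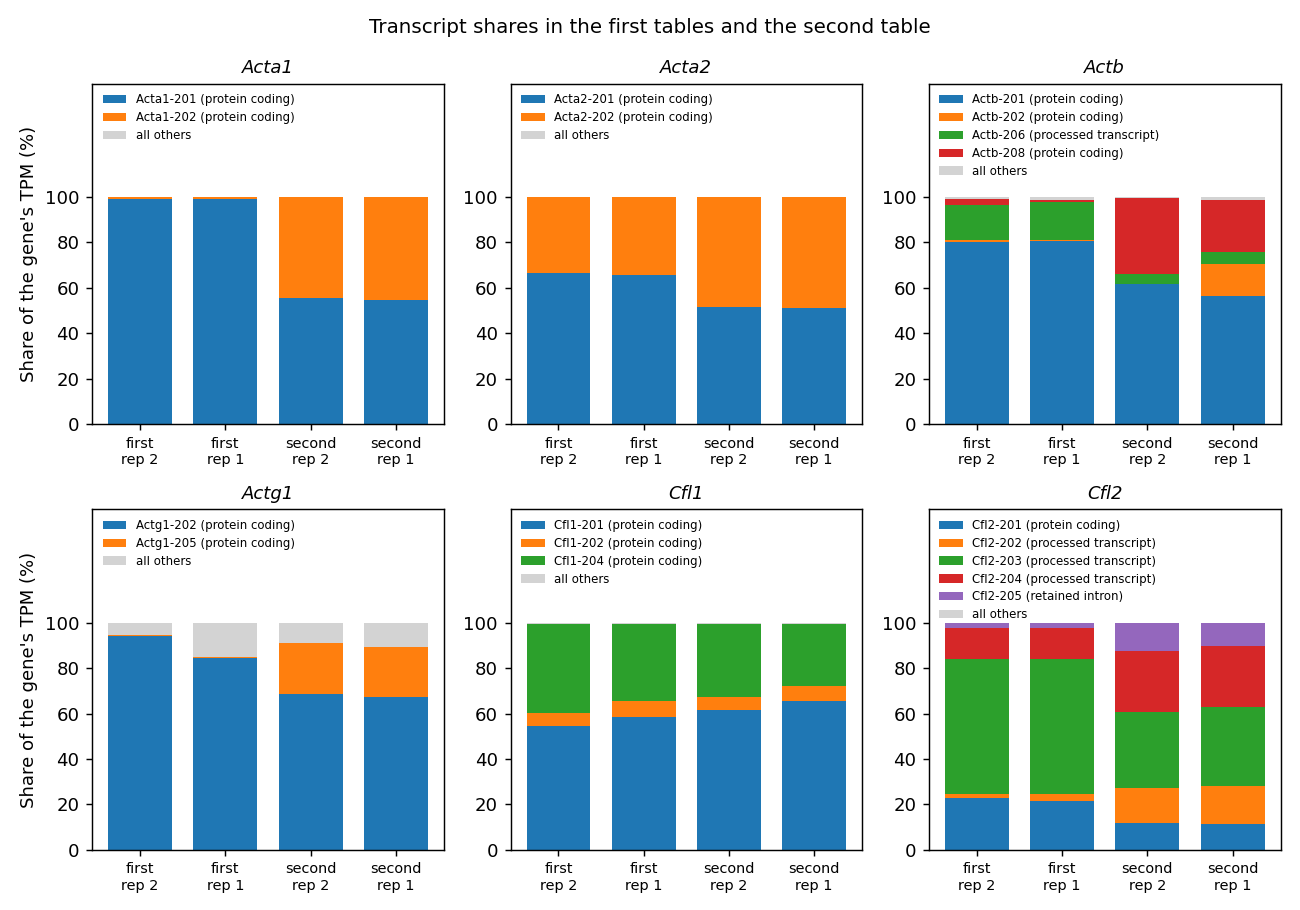
Percent of each gene's TPM (vertical axis) held by each transcript of at least 5% in either table, stacked per library, with the first tables on the left of each panel and the second table on the right. The orange part of Acta1, Acta1-202, is 0.770% in the first tables and 44.5% in the second in replicate 2, and most of Cfl2 lies on transcripts without coding annotation in all 4 bars.

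Taken per gene, 3 of the 8 passed a threshold of 0.5 in the log2 ratio of the first tables over the second after centring on the median gene, beside a background of 9.36% of 10948 protein-coding genes, a set outside which Actg2 lies for its low count. All 3 were lower in the first tables: Acta1 at -0.63, Actg2 at -0.67 and Cfl2 at -0.70, where 6.54% of the background was lower and 2.82% higher. The median gene itself stood at -0.55 before centring. Actc1 stood at -0.01 after centring, and the others ran from -0.14 for Cfl1 to -0.34 for Acta2. The share of Acta1 among the actins was 88.2% in the first tables against 91.5% in the second in replicate 2, and 87.9% against 91.2% in replicate 1.

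Promoter sequence was read for 6 of the 8 genes, all but Actb and Actg2, from the RefSeq table of GRCm38.p6, 250 bases before to 50 after the gene start. It was searched on both strands for the CArG box, the 10-base site of serum response factor, a factor that actin monomers regulate through its partners Mrtfa and Mrtfb. The box was present in Acta1, Actc1 and Actg1, and in 1.63% of 32851 promoters of this length. Allowing 1 other base in its A/T core gave matches in Acta2 as well, and in 9.98% of all promoters. Cfl1 and Cfl2 had none by either rule. The boxes are printed in capitals, and their likeness follows from the pattern searched for. Only 1 match per gene is printed. Acta1, Actc1 and Acta2 held further matches with 1 other base in the core. The stretches run 5′ to 3′ on the minus strand. From the RefSeq gene start, the first base of the box lies 73, 47, 84 and 90 bases before it in Acta1, Actc1, Acta2 and Actg1. The GENCODE gene spans given above differ from this start, and the printed stretches of Actc1 and Acta2 lie inside them. The leading transcript Actc1-201 begins at chr2:114052887, so the Actc1 stretch still lies before it. Acta2-201 begins at chr19:34255590, so the Acta2 stretch lies after the start of that transcript.
Acta1, chr8:123894824-123894863: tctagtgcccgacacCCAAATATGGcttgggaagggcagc
Actc1, chr2:114052898-114052937: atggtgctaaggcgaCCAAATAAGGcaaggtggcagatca
Acta2, chr19:34255433-34255472, 1 other base in the core: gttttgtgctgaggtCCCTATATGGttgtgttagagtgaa
Actg1, chr11:120348561-120348600: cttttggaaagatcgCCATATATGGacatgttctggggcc

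TATAAA was found in the windows of Acta1 and Actc1 and in 13.6% of all promoters, with no overlap with the boxes. Its first base lay 7 bases before the RefSeq gene start in Acta1 and 33 bases after it in Actc1. GGGCGG, a GC-box core, had 8 matches in Cfl2, 6 in Actg1 and 2 each in Acta1 and Cfl1, and none in Actc1 and Acta2, against at least 1 match in 35.7% of promoters. Of the factor and its partners, Srf had 30.5 TPM in replicate 2 against 28.4 TPM in replicate 1. Mrtfa, Mrtfb and Myocd, the last a partner in heart and smooth muscle, had 15.3, 14.5 and 1.08 TPM in replicate 2 and 16.7, 16.8 and 0.630 TPM in replicate 1. None of the 3 with enough counts passed 0.25 between libraries, beside 16.6% of the background genes. The sequence matches are descriptions of these windows and say nothing of binding in this tissue.

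The other genes of actin turnover were read from lists, each given by its count past 0.25 beside the same background of 16.6%. Of 12 compared turnover factors, which sever, cap or recycle filaments, 1 was higher in replicate 2 and 0 lower, and the median ratio was 0.13. The 3 highest were Cap2, a cyclase-associated protein that recycles monomers, the severing protein gelsolin (Gsn), and Wdr1, which helps cofilin disassemble filaments. They had 109, 93.4 and 56.7 TPM in replicate 2 and 113, 88.8 and 58.3 TPM in replicate 1. Twf2, a monomer-binding twinfilin, was past the threshold, with 32.0 TPM in replicate 2 against 24.4 TPM in replicate 1 and a ratio of 0.43 (interval 0.32 to 0.55). Destrin (Dstn), the third protein of the cofilin family, named here after its values were seen, had 28.9 TPM in replicate 2 against 27.9 TPM in replicate 1, below both cofilins in each library.

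Of 7 compared kinases and phosphatases of cofilin, 0 passed 0.25 and the median was -0.07. The slingshot phosphatase Ssh2, which activates cofilin, had 17.0 TPM in replicate 2 against 15.9 TPM in replicate 1, and the inactivating kinases Tesk1 and Limk2 had 12.1 and 6.61 TPM in replicate 2 and 11.9 and 7.67 TPM in replicate 1. Ssh1, the largest ratio in size, stood at -0.17. All 7 were at levels far below those of the cofilins themselves.

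Monomer-binding genes were abundant. Tmsb4x and Tmsb10, thymosins that hold monomers in reserve, had 230 and 205 TPM in replicate 2 and 209 and 206 TPM in replicate 1. Profilin 1 (Pfn1), which loads monomers onto growing ends, had 195 TPM in replicate 2 against 198 TPM in replicate 1. Pfn2 and Pfn4 had 49.0 and 1.23 TPM in replicate 2 and 50.1 and 0.820 TPM in replicate 1, and Pfn3 was listed at 0. Of 4 compared, 0 passed the threshold. Capzb, the beta subunit that caps thin filaments at the Z-disc, had 272 TPM in replicate 2 against 269 TPM in replicate 1. The alpha subunits Capza2 and Capza1 had 120 and 13.9 TPM in replicate 2 and 131 and 16.2 TPM in replicate 1, and Capza3 was listed at 0. Of the 3 compared, 0 passed. The Capzb level was close to that of Acta2.

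All 9 genes of the Arp2/3 complex, which nucleates branched filaments, were above 1 TPM and 0 of 9 passed 0.25. Their summed level was 268 TPM in replicate 2 against 263 TPM in replicate 1, led by Arpc2, Arpc4 and Actr3 with 42.6, 36.9 and 34.6 TPM in replicate 2 and 44.1, 36.7 and 35.6 TPM in replicate 1. Arpc3 had the largest ratio, 0.22. Of the formins and other nucleators of unbranched filaments, 13 were compared, and 3 were higher and 2 lower in replicate 2, with a median of -0.05. Cobl, Fhod3, which acts in sarcomere assembly, and Daam1 led with 48.6, 11.8 and 8.27 TPM in replicate 2 and 53.9, 12.5 and 7.76 TPM in replicate 1. Fmnl1 had the largest count ratio, 0.56, at 2.86 TPM in replicate 2 against 2.68 TPM in replicate 1. For folding and modification of actin, 16 of 16 genes were above 1 TPM and 0 of 16 passed, led by Pfdn5, Cct5 and Tcp1, subunits of prefoldin and of the chaperonin that fold new actin. These had 120, 102 and 91.5 TPM in replicate 2 and 123, 112 and 106 TPM in replicate 1. Naa80, which acetylates the actin N-terminus, had the largest ratio, 0.24.

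**Figure D5:**
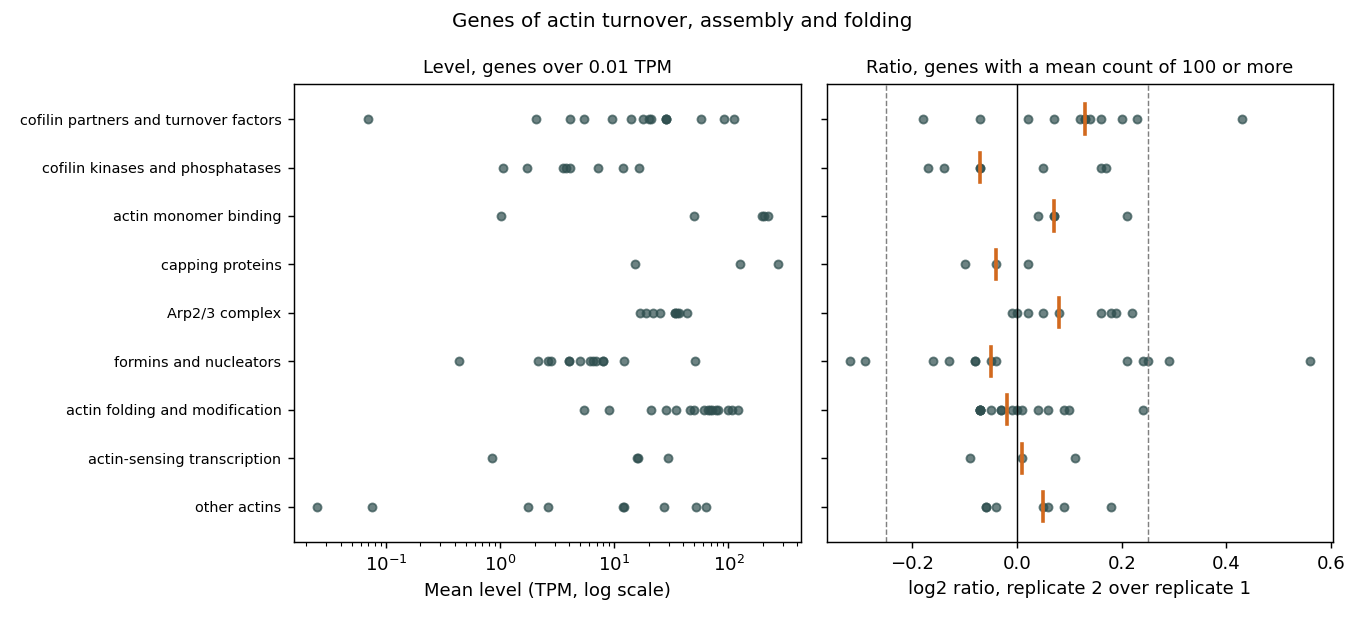
Mean TPM (left panel, log scale) and log2 ratio of replicate 2 over replicate 1 (right panel) of genes in each list, 1 point per gene, with the median ratio as an orange bar and dashed lines at 0.25 either way. The right panel holds only genes whose mean count reached 100, and its points past the lines occur among the turnover factors (1 gene) and the formins (5 genes).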

How the data were processed

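The data are 2 total RNA libraries of mouse gastrocnemius. Per gene and per transcript, the deposited tables give expected counts, TPM and the percent of each gene's TPM in each transcript, in the layout of RSEM, per the file headers, and were made on mm10 with GENCODE M21, per the accompanying notes. A second deposited transcript table, laid out as kallisto writes it, gives estimated counts and TPM. For program versions and the use of strand, the sources used here state nothing. The deposited TPM include spike-ins and mitochondrial genes in their total.

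Depth was 38160786 expected counts in replicate 2 and 38874862 in replicate 1, with 0.735% on spike-ins in replicate 2 and 0.741% in replicate 1. Expected counts were rounded to whole numbers, and libraries scaled with TMM in edgeR 4.0.16 (R 4.3.3) over genes whose mean count reached 10. Ratios used a prior count of 0.5 and exact binomial 95% intervals. The ratio of replicate 2 over replicate 1 was tested on simulated data: for 50 genes each set to -1, -0.5, 0.5 and 1 the median recovered log2 ratios were -1.07, -0.52, 0.47 and 1.07, and for 11291 unchanged genes 0.00. Genes of the background and lists were counted past 0.25 where the mean count was 100 or more, and the 8 actins and cofilins at any count. Between tables, ratios were centred on the median gene. Coding sequences, exact windows and motifs were read with Python 3.11.15 and biopython 1.88 from GENCODE M21 transcripts and RefSeq promoters, in which 6 of 8 genes matched.

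Named were all 8 genes, their neighbours in mean TPM, transcripts of 5% or more, named pseudogenes, and of each list all members (up to 6) or the 3 highest and the largest ratio; not all marker genes are given with values. Of 6 symbols for actin-sensing transcription, 4 matched, since Mkl1 and Mkl2 are older names of Mrtfa and Mrtfb. Genes and lists were chosen with earlier results of these data known. Alternatives covered the second table, other scalings (DESeq2 1.42.0 size factors, library and spike-in totals), posterior mean counts, no filter, a prior count of 2, a threshold of 0.5, counts not scaled by length, added pseudogenes and each replicate left out.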

Additional observations from a re-analysis of the deposited data

How the results depend on the processing

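The share of Acta1 among the actins, 88.0%, was 91.4% in the second table, 87.1% by expected counts without length scaling, and 88.4% over protein-coding transcripts. The cytoplasmic share, 3.12%, became 2.50%, 3.81% and 2.68% under those settings and 3.13% with posterior mean TPM. The share of Cfl2 among the cofilins, 72.7%, became 79.7%, 78.1% and 37.3%. The sum over protein-coding transcripts was added after seeing the data. Adding Actg-ps1 and Actb-ps1, the pseudogenes named after Actg1 and Actb, left all 3 shares as they were at this rounding. Gm8399 was not added, nor was any pseudogene of a cofilin, so the share of Cfl2 could not move in this setting. Leaving out each replicate gave 87.9% to 88.2%, 3.12% and 71.5% to 73.9%. The count of genes past 0.25 was 2 under 7 alternatives of scaling, table, estimate, filter and prior count, and 1 at a threshold of 0.5. TPM without the 7SL, spike-in and mitochondrial genes was 1.77 times higher in both libraries. Of 22 transcript shares, 20 moved by more than their SD in the second table. The order of the cofilins turned in 1 setting: over protein-coding transcripts Cfl2 lay below Cfl1.

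No paired analysis was possible because the libraries form 1 group. With 2 libraries the SD itself is poorly known, and the causes of the differences between tables were not tested.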

Other observations

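Actin-related genes outside the conventional isoforms were at moderate or no level. Of 16, 7 were above 1 TPM in both libraries and 3 were listed at 0 in both. The dynactin genes Actr1b and Actr1a had 64.0 and 27.2 TPM in replicate 2 and 62.1 and 27.7 TPM in replicate 1, and Actr10, also of dynactin, had 50.2 TPM in replicate 2 against 54.2 TPM in replicate 1. The chromatin-remodelling genes Actl6a, Actr5 and Actr8 had 11.4, 1.76 and 11.3 TPM in replicate 2 and 13.1, 1.73 and 12.6 TPM in replicate 1. None of the 7 passed 0.25 between libraries, beside 16.6% of the background genes. The testis genes Actl7a, Actrt1 and Actrt2 were those listed at 0. Among markers of other cells, 1 of 3 compared macrophage genes was higher past 0.25 in replicate 2 (Adgre1, 0.34) and 0 of 4 satellite cell genes passed it. Of the background genes, 16.6% passed it either way and 9.47% were higher. The counting interval of Adgre1 was 0.02 to 0.66, and Csf1r and C1qa had ratios of -0.03 and 0.06.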
